A study of Mus musculus with 30 samples.

Results

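Collagens are the fibrous proteins of the extracellular matrix, and 44 of the 18847 protein-coding genes measured in thymic stroma encode a collagen chain. The members were all genes whose symbol has the form Col, a type number, the letter a and a chain number. RNA had been sequenced from 5 stromal populations sorted from the thymus of newborn B6.SJL mice of mixed sex at 3 days of age. The mice had been injected at 1 day of age, 2 days before collection, with Aflibercept, a decoy of parts of the VEGF receptors that binds VEGF-A (called Trap here), or with hFC protein as control. Each population had 4 Trap and 2 control libraries. All populations came from the gate without CD3, CD4, CD8, CD45 and Ter119. They were CD140a+ mesenchyme and CD146+ mesenchyme (both without EpCAM and CD31), cortical thymic epithelial cells (cTEC, EpCAM+ with high Ly51), medullary thymic epithelial cells (mTEC, EpCAM+ with low or no Ly51) and CD31+ endothelium. The number of animals behind a library, and whether libraries share animals, is not in the labels. The p-values therefore rest on variation from library to library, which may be partly technical.

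A collagen molecule is built of 3 chains wound into a triple helix, and the chains are products of separate genes. Fibrillar collagens form the tensile fibres of connective tissue. Basement membrane collagens (type IV) form the sheet on which endothelium and epithelium rest. Beaded filament collagens (type VI) form microfibrils around cells. FACIT collagens sit on the surface of fibrils, multiplexins lie where basement membranes meet the matrix around them, and transmembrane collagens are anchored in the cell surface. In the thymus, mesenchyme fills the capsule, the septa and the spaces around vessels, and it is the usual source of fibrillar matrix.

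The 44 genes comprised 11 fibrillar, 6 basement membrane, 7 beaded filament, 9 FACIT, 3 network, 2 multiplexin and 4 transmembrane collagens, the anchoring fibril collagen Col7a1 and Col26a1. Values are FPKM, read fragments counted per kilobase of a gene and scaled for sequencing, which allow levels of different genes to be set side by side. A gene was tested if it reached 1 FPKM in at least 2 of the 30 libraries. That held for 42 members and 16425 genes in all. Col4a4 and Col9a1 did not pass, with means of at most 0.57 FPKM for Col4a4 in CD140a+ mesenchyme and 0.835 FPKM for Col9a1 in mTEC. Of the 44, 26 reached 5 FPKM in the mean of a group of libraries. The population with the highest mean was CD140a+ mesenchyme for 15 of these 26, CD146+ mesenchyme for 6, endothelium for 3, mTEC for 2 and cTEC for 0.

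The libraries were checked by markers of each cell type. All 9 fibroblast markers reached 1 FPKM in each CD140a+ library, all 10 mural cell markers in each CD146+ library and all 10 endothelial markers in each endothelial library. All 8 cTEC markers did so in each cTEC library and all 7 mTEC markers in each mTEC library. Markers of other types were present too. Summed mTEC markers were 253 to 874 FPKM in cTEC libraries, most of it Ccl21a (173 to 749 FPKM), against 1048 to 2748 FPKM in mTEC libraries. Summed mural markers were 509 to 761 FPKM in mTEC libraries, against 5087 to 6594 FPKM in CD146+ mesenchyme. Most of the mTEC sum was Rgs5 (425 to 689 FPKM). Of the 10 mural markers, 8 to 9 reached 1 FPKM in CD140a+ libraries and 8 to 10 in endothelial libraries. This count alone therefore separates the populations little. The sums were 167 to 274 FPKM in CD140a+ and 187 to 236 FPKM in endothelial libraries. In mTEC libraries 6 to 8 of the 10 reached 1 FPKM. Myh11 was at 26.9 to 52.0 FPKM and Acta2 at 15.9 to 31.4 FPKM there, while Pdgfrb was at 2.80 to 4.41 FPKM and Kcnj8 at most 0.04 FPKM. The part of these markers in the epithelial collagen results was not tested. In addition, 1 library stood apart. In endothelium, Trap replicate 2 held summed epithelial markers of 44.4 FPKM, against 3.25 to 5.94 FPKM in the other 3 Trap libraries and 13.5 and 5.94 FPKM in the controls. Without this library, the counts of collagen genes called were again 6 higher and 25 lower for endothelium against the other populations, and 1 for Trap in endothelium.

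Collagen genes made up 3.09 ± 0.219% of the summed FPKM in CD140a+ mesenchyme (SD, n = 6 libraries, as for all population levels here). The share was 0.940 ± 0.0663% in CD146+ mesenchyme, 0.514 ± 0.0440% in endothelium, 0.132 ± 0.0132% in cTEC and 0.101 ± 0.00602% in mTEC. The ranges of the 6 libraries did not overlap between any of these populations. In such sorted bulk samples, fewer cells of a type and less RNA per cell cannot be told apart. In CD140a+ mesenchyme, fibrillar chains made up 73.5% of the collagen FPKM. In endothelium, basement membrane chains made up 78.8% and multiplexins 13.7%. CD146+ mesenchyme was divided between basement membrane (32.9%), fibrillar (32.3%) and beaded filament (27.6%) chains. In the epithelium, basement membrane chains made up 45.2% in cTEC and 32.9% in mTEC, and FACIT chains 25.7% and 29.6%.

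**Figure D1:**
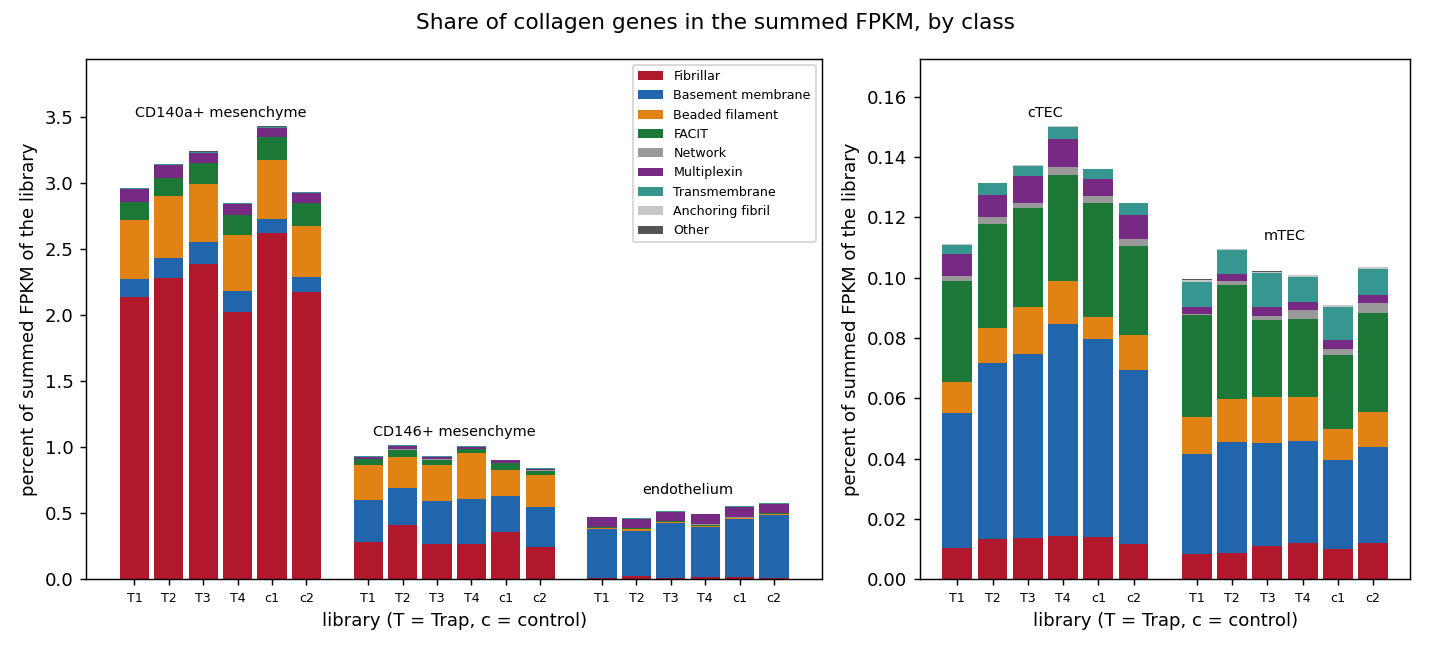
Percent of the summed FPKM of each library taken by collagen genes, stacked by class, with mesenchyme and endothelium on the left and epithelium on the right at a finer scale. The 6 CD140a+ libraries lie at the top and are mostly fibrillar, while endothelial bars are mostly basement membrane.

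Every population was set against the average of the remaining 4 to ask which chains it expressed above the rest of the stroma. A gene called higher in a population was above that average and need not be highest there. Differences were taken on the log2(FPKM + 1) scale and tested with limma, and a gene was called at a Benjamini-Hochberg adjusted p under 0.05 over all 16425 genes. CD140a+ mesenchyme had 23 collagen genes higher and 5 lower of 42, where 17.1% of all genes were higher and 33% lower. CD146+ mesenchyme had 27 higher and 4 lower, where 18.2% of all genes were higher and 25% lower. cTEC had 6 higher and 26 lower, where 21.2% of all genes were higher and 24.5% lower. mTEC had 9 higher and 22 lower, where 38.4% of all genes were higher and 17.5% lower. Endothelium had 6 higher and 25 lower, where 17.7% of all genes were higher and 34.5% lower. Both mesenchymal populations therefore had a larger share of collagen genes on the higher side than the background. Both epithelial populations had a smaller one, and endothelium was close to the background on this side. On the lower side, cTEC, mTEC and endothelium had a larger share of collagen genes than the background, and both mesenchymal populations a smaller one. mTEC libraries had the largest sums of FPKM, and quantile normalization moved the median of all genes by −0.33 for mTEC, 0.12 for endothelium and 0.11 for CD140a+ mesenchyme. Under it, the counts of higher and lower collagen genes were 5 and 31 in mTEC, 9 and 24 in endothelium and 24 and 4 in CD140a+ mesenchyme. On a TPM scale, CD146+ mesenchyme had 30 higher and 3 lower.

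**Figure D2:**
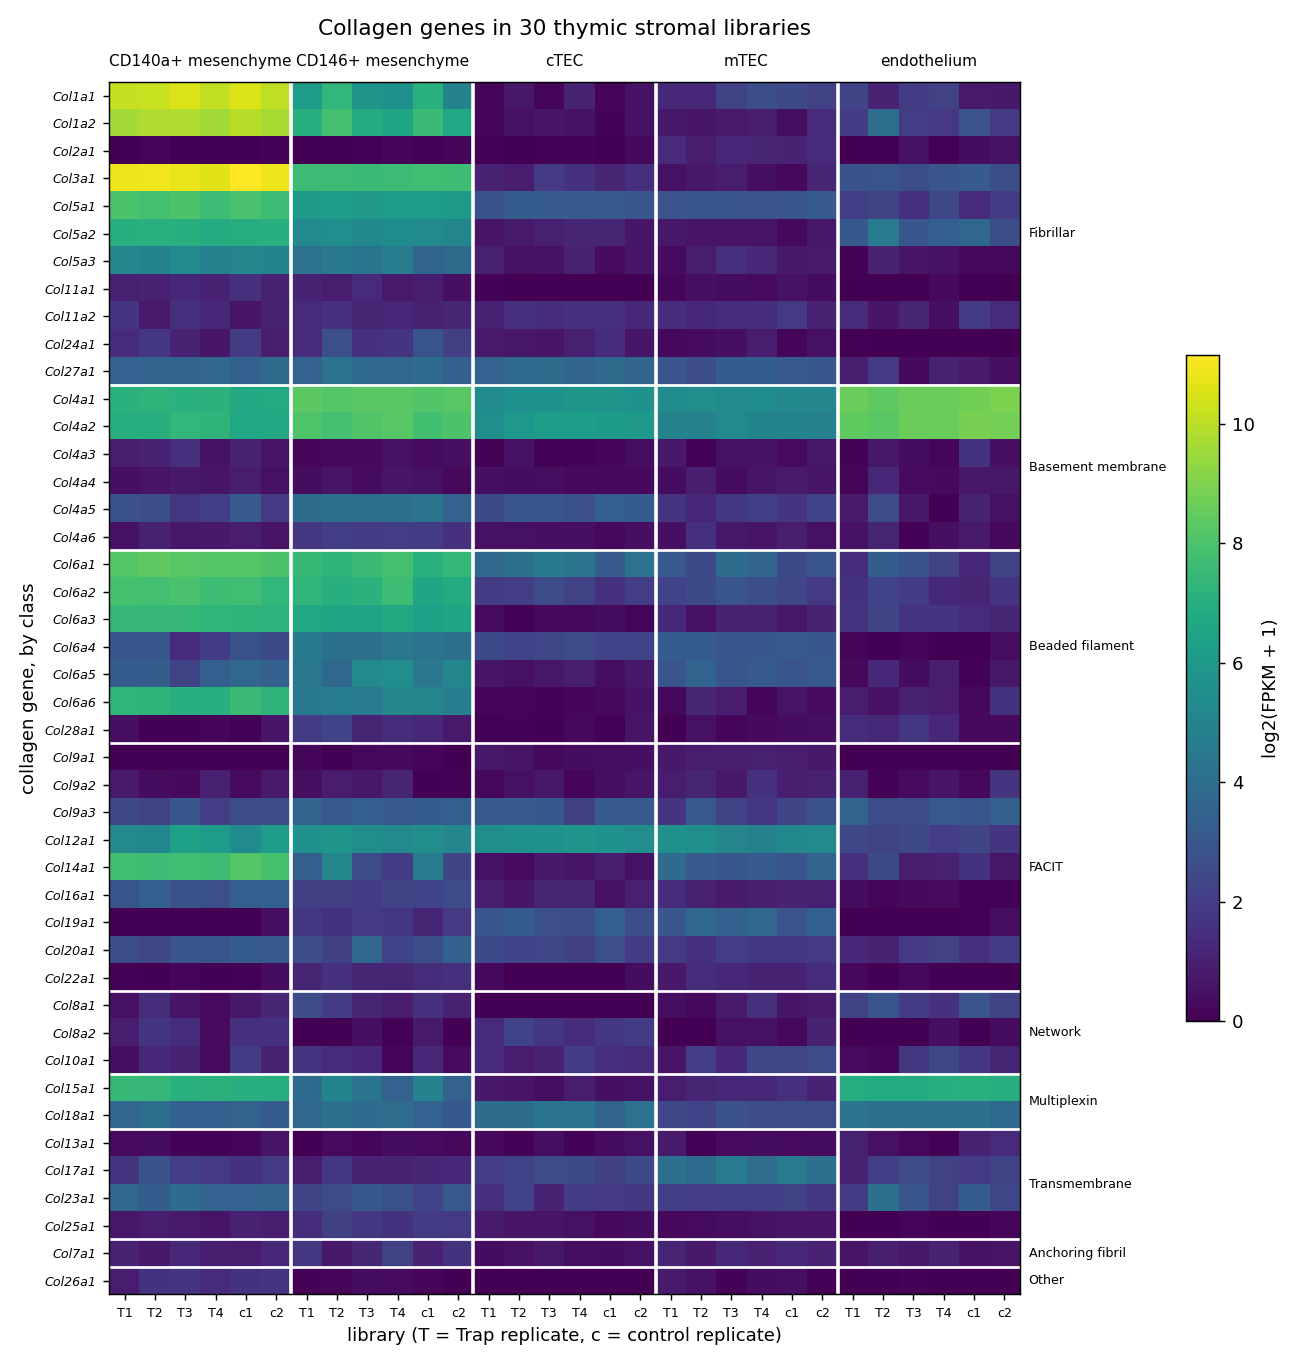
Level of all 44 collagen genes, as log2(FPKM + 1), in the 30 libraries, with genes in rows by class and libraries in columns by population (T, Trap replicate; c, control replicate). Several fibrillar rows, led by Col3a1, Col1a1 and Col1a2, are bright in CD140a+ mesenchyme, while Col2a1, Col11a1, Col11a2 and Col24a1 are dark there. Col4a1 and Col4a2 are brightest in endothelium and CD146+ mesenchyme and of middle brightness in cTEC and mTEC. Col15a1 is bright in CD140a+ mesenchyme and in endothelium.

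Among fibrillar collagens, 9 of 11 were higher in CD140a+ mesenchyme than in the other populations and 1 was lower. Col3a1, the type III chain of reticular and vascular fibres, stood at 1584 to 2260 FPKM with a median of 1855 FPKM in CD140a+ mesenchyme. In CD146+ mesenchyme it stood at 184 to 209 FPKM with a median of 199 FPKM. The next population, endothelium, had 5.40 to 8.25 FPKM, and both epithelia had at most 2.60 FPKM. Its difference of CD140a+ mesenchyme from the other populations was 7.76 ± 0.13 (log2, SE; adjusted p = 6.97e-25).

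Col1a1 and Col1a2 encode the chains of type I collagen, the main fibre of skin and bone. In CD140a+ mesenchyme, Col1a1 had a range of 1068 to 1525 FPKM with a median of 1152 FPKM and Col1a2 a range of 765 to 998 FPKM with a median of 855 FPKM. In CD146+ mesenchyme, Col1a1 had 71.0, 166, 53.2 and 48.0 FPKM with Trap and 134 and 30.5 FPKM in controls. Col1a2 there had 131, 228, 115 and 93.9 FPKM with Trap and 193 and 101 FPKM in controls. Trap replicate 2 and control replicate 1 were the highest CD146+ libraries for both genes. The same 2 libraries were the highest for the FACIT chain Col14a1 (32.5 and 22.7 FPKM, others 2.88 to 9.07 FPKM) and for Col15a1 (31.5 and 30.1 FPKM, others 10.2 to 18.6 FPKM). Their summed fibroblast markers were 253 and 220 FPKM, against 161 to 207 FPKM in the other 4 CD146+ libraries. The part of these markers in the spread was not tested. In the epithelium and endothelium Col1a1 averaged at most 3.31 FPKM.

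Col5a1 encodes a chain of type V collagen, which starts fibrils and limits their width. Its mean was 232 ± 24.9 FPKM in CD140a+ mesenchyme, 67.8 ± 3.94 FPKM in CD146+ mesenchyme, 7.59 ± 1.03 FPKM in cTEC, 6.69 ± 0.675 FPKM in mTEC and 2.96 ± 1.10 FPKM in endothelium. The ranges of cTEC and mTEC overlapped and the other neighbours in this order did not. Its partner chain Col5a2 was lower in epithelium, with 0.890 ± 0.320 FPKM in cTEC and 0.518 ± 0.162 FPKM in mTEC. In endothelium Col5a2 stood above Col5a1, with 10.8 ± 6.58 FPKM. Col27a1, a fibrillar chain best known from cartilage, differed from this pattern. It was at 12.6 ± 2.84 FPKM in CD146+ mesenchyme, 12.2 ± 1.25 FPKM in cTEC and 11.1 ± 1.22 FPKM in CD140a+ mesenchyme, with overlapping ranges. Col2a1, the main collagen of cartilage, was low in every population and highest in mTEC, with 0.87 to 1.58 FPKM there and at most 0.45 FPKM in any other library.

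The region around the start of Col1a2 and Col3a1 is shown because these genes are among the 3 highest collagens of CD140a+ mesenchyme. Both are RefSeq windows of GRCm38.p6, from 250 bases before to 50 after the start, read 5′ to 3′ on the plus strand. Capitals mark matches on either strand to the CCAAT box (CCAAT), the GC box (GGGCGG) and the TATA box (TATAAA). The Col1a2 window lies at chr6:4505368-4505667 and the Col3a1 window at chr1:45311288-45311587.
Col1a2: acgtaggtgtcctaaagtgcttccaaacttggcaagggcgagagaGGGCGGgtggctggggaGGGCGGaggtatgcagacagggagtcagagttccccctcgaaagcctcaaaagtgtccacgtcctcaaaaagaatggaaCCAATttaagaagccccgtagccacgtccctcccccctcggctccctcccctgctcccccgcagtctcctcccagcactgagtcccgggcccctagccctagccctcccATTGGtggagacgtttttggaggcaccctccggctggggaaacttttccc
Col3a1: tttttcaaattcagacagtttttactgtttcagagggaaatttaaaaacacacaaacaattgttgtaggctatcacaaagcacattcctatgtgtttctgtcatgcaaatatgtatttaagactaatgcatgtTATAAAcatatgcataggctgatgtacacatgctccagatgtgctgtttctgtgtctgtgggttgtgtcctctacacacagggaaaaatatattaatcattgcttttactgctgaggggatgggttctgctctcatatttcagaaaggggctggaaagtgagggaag
The Col1a2 window held 2 CCAAT and 2 GC boxes and no TATA match, and the Col3a1 window held 1 TATA match and neither of the others. RefSeq windows were matched for 35 of the 44 collagen genes, some with more than 1 start, giving 38 windows. The GC box occurred in 60.5% of the collagen windows and 35.7% of all 32851 windows of this length. The CCAAT box occurred in 34.2% and 37.4% and the TATA box in 13.2% and 13.6%. The matches are letters only and show no binding.

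Basement membrane chains led the collagen of endothelium and cTEC. In mTEC they led in the mean, but FACIT chains took a larger share in Trap replicates 1 and 2 and control replicate 2. In CD146+ mesenchyme they were level with fibrillar chains in the mean, and fibrillar chains took more in Trap replicate 2 and control replicate 1. Col4a1 and Col4a2 encode the chains of the type IV network present in nearly all basement membranes. Col4a1 had 336 to 490 FPKM with a median of 383 FPKM in endothelium and 276 to 320 FPKM with a median of 310 FPKM in CD146+ mesenchyme. It had 105 to 150 FPKM with a median of 136 FPKM in CD140a+ mesenchyme, 41.0 to 58.9 FPKM with a median of 48.4 FPKM in cTEC and 35.0 to 44.7 FPKM with a median of 40.5 FPKM in mTEC. Only the ranges of cTEC and mTEC overlapped. Col4a2 followed the same order, with means of 391 ± 57.9 FPKM in endothelium, 260 ± 32.1 FPKM in CD146+ mesenchyme, 129 ± 25.9 FPKM in CD140a+ mesenchyme, 63.5 ± 10.8 FPKM in cTEC and 31.9 ± 3.06 FPKM in mTEC. Against CD146+ mesenchyme, endothelium was higher in Col4a1 by 0.46 ± 0.08 and in Col4a2 by 0.67 ± 0.12 (log2, SE; adjusted p = 3.67e-05 and 3.72e-05).

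The genes lie head to head on chromosome 8 of GRCm38, Col4a1 on the minus strand at 11198423 to 11312826 and Col4a2 on the plus strand at 11312805 to 11449287. Their annotated extents overlap by 22 bases, and strand use in counting is not given in the sources used here. Their start windows are shown because the 2 starts lie 21 bases apart and the windows overlap. The Col4a1 window lies on the minus strand at chr8:11312777-11313076 and the Col4a2 window on the plus strand at chr8:11312555-11312854. They share 78 bases, and capitals mark the same motifs as above.
Col4a1: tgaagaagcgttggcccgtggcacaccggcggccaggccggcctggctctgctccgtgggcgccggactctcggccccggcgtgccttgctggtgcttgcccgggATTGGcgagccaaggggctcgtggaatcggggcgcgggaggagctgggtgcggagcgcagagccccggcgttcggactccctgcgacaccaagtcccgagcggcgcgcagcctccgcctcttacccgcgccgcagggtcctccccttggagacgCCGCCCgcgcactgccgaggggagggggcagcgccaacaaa
Col4a2: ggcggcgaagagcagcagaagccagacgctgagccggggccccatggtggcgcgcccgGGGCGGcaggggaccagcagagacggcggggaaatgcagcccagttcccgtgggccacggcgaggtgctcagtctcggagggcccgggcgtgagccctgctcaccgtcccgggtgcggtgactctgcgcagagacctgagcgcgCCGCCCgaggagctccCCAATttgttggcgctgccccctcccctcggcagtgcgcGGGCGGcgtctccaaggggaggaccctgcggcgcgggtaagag
The Col4a1 window held 1 CCAAT and 1 GC box, and the Col4a2 window held 1 CCAAT and 3 GC boxes. The GC box of the Col4a1 window lies in the shared bases. It is the last GC box of the Col4a2 window read on the other strand, so it is counted in both.

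The other type IV chains were scarcer. Col4a5, a chain of kidney and smooth muscle basement membranes, was higher in CD146+ mesenchyme than in the other populations by 1.89 ± 0.25, with 14.8 ± 2.47 FPKM. It followed with 6.82 ± 1.78 FPKM in cTEC and 4.66 ± 2.30 FPKM in CD140a+ mesenchyme, whose ranges overlapped. Col4a6, its head-to-head neighbour on chromosome X, was also highest in CD146+ mesenchyme, at 2.77 ± 0.473 FPKM with no overlap with the next population. Col4a3 averaged at most 1.03 FPKM.

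All 7 beaded filament collagens were higher in CD146+ mesenchyme and 5 were higher in CD140a+ mesenchyme. Col6a1, Col6a2 and Col6a3 encode the classical chains of type VI collagen. In CD140a+ mesenchyme they averaged 295 ± 25.4, 216 ± 29.98 and 161 ± 10.9 FPKM, and in CD146+ mesenchyme 176 ± 34.1, 139 ± 37.2 and 94.99 ± 8.04 FPKM. The ranges of the mesenchymal populations overlapped for Col6a2 but not for Col6a1 and Col6a3. Col6a4, Col6a5 and Col6a6 encode chains that can take the place of the Col6a3 product. Col6a6 was a CD140a+ gene, with 125 to 195 FPKM and a median of 152 FPKM, against 21.6 to 33.1 FPKM in CD146+ mesenchyme (difference 2.46 ± 0.21, adjusted p = 3.06e-10). Its neighbours on chromosome 9 ran the other way. Col6a4 was lower in CD140a+ than in CD146+ mesenchyme by a log2 difference of −1.76 ± 0.21 and Col6a5 by −1.46 ± 0.28.

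The epithelium expressed type VI chains unevenly. In cTEC, Col6a1 was at 15.7 ± 4.84 FPKM and Col6a2 at 3.23 ± 0.966 FPKM, but Col6a3 was at 0.04 to 0.28 FPKM. Among the chains that can replace Col6a3 there, Col6a4 reached 4.11 ± 0.473 FPKM, and Col6a5 and Col6a6 averaged 0.588 and 0.180 FPKM. In mTEC, Col6a1 was at 8.20 ± 3.89 FPKM, Col6a3 at 0.968 ± 0.347 FPKM, Col6a4 at 7.50 ± 0.748 FPKM and Col6a5 at 7.76 ± 1.48 FPKM. Col6a4 and Col6a5 in mTEC exceeded the average of the other populations by 0.77 ± 0.17 and 0.79 ± 0.22. Neither was highest there: CD146+ mesenchyme had 18.4 ± 2.46 FPKM of Col6a4 and 27.9 ± 11.9 FPKM of Col6a5, and CD140a+ mesenchyme had 4.85 ± 2.28 and 8.58 ± 2.76 FPKM.

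FACIT collagens split by population. Col14a1 and Col12a1 encode chains that coat type I fibrils in tendon and skin. Col14a1 was a CD140a+ gene, with 204 to 282 FPKM and a median of 210 FPKM, and stood 17.8 times above its mean in CD146+ mesenchyme. In mTEC it had 6.96 to 13.9 FPKM, and in cTEC 0.24 to 0.94 FPKM (cTEC against mTEC −2.67 ± 0.41, adjusted p = 5.89e-06). The ranges of Col12a1 overlapped between neighbours in 4 populations, at 55.2 ± 19.8 FPKM in CD140a+ mesenchyme, 48.5 ± 4.32 FPKM in cTEC, 44.1 ± 7.15 FPKM in CD146+ mesenchyme and 38.2 ± 7.29 FPKM in mTEC. It was lower in endothelium by −3.36 ± 0.15, with 3.66 ± 0.856 FPKM, and it was the third most abundant collagen of cTEC and the second of mTEC. In CD140a+ mesenchyme Col12a1 had 36.5, 36.1, 79.7 and 69.0 FPKM with Trap and 39.9 and 70.1 FPKM in controls, so that its libraries fell into a low and a high set that each held Trap and control libraries.

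Col19a1, a FACIT chain of basement membrane zones, was an epithelial gene. It had 6.30 to 12.3 FPKM with a median of 9.86 FPKM in mTEC and 5.39 to 9.49 FPKM with a median of 6.04 FPKM in cTEC. CD146+ mesenchyme had 1.22 to 2.74 FPKM, and no library of CD140a+ mesenchyme or endothelium exceeded 0.32 FPKM. Its difference from the other populations was 2.11 ± 0.15 in mTEC and 1.67 ± 0.15 in cTEC. Col16a1, found in fibrillar and microfibrillar networks, was highest in CD140a+ mesenchyme at 7.70 ± 2.05 FPKM. Of the 3 type IX chains, Col9a3 was measured at 4.35 to 8.86 FPKM on average in every population, while Col9a2 averaged at most 1.14 FPKM. Col9a3 shares 234 exon bases with Tcfl5 on the opposite strand, so its reads cannot be told apart from those of Tcfl5 if counting ignored strand.

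The multiplexin Col15a1, a chain found beneath endothelium and muscle, was high in a mesenchymal population and in endothelium. It had 125 to 177 FPKM with a median of 138 FPKM in CD140a+ mesenchyme and 114 to 135 FPKM with a median of 120 FPKM in endothelium, and these ranges overlapped. CD146+ mesenchyme followed with 10.2 to 31.5 FPKM, and the epithelia had at most 1.93 FPKM. Col18a1, whose cleaved end is endostatin, averaged 15.8 ± 1.66 FPKM in endothelium, 15.5 ± 2.87 FPKM in cTEC, 12.4 ± 3.08 FPKM in CD146+ mesenchyme, 11.04 ± 2.30 FPKM in CD140a+ mesenchyme and 4.79 ± 0.733 FPKM in mTEC. Only mTEC lay apart from its neighbour. Among transmembrane collagens, Col17a1, a hemidesmosome protein of basal keratinocytes, was higher in mTEC by 2.35 ± 0.19, with 13.1 to 22.9 FPKM and a median of 15.6 FPKM, against 3.12 to 4.80 FPKM in cTEC. Col23a1 was highest in CD140a+ mesenchyme, at 11.1 ± 1.65 FPKM, and overlapped with endothelium, where Trap replicate 2 had 16.0 FPKM and the other libraries 3.00 to 8.85 FPKM.

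The network collagens stayed below 5 FPKM in every group mean. Col8a1, a chain of the endothelial and corneal matrix, was higher in endothelium by 1.57 ± 0.23, with 4.11 ± 1.83 FPKM. Its partner Col8a2 was highest in cTEC, with 2.44 ± 0.800 FPKM, and at 0.120 ± 0.176 FPKM in endothelium. Col10a1, known from hypertrophic cartilage, was higher in mTEC by 0.82 ± 0.31, with 0.49 to 5.03 FPKM there. That range overlapped with endothelium, at 0.12 to 4.33 FPKM. Col10a1 shares 18 exon bases with Nt5dc1 on the opposite strand, so reads there cannot be told apart if counting ignored strand. Col7a1, the anchoring fibril chain of skin, and Col26a1 averaged at most 1.87 and 1.84 FPKM.

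The mesenchymal populations were then set against each other. CD140a+ mesenchyme had 19 collagen genes higher and 12 lower than CD146+ mesenchyme, where 13.5% of all genes were higher and 17.7% lower. The largest differences were Col14a1 (4.53 ± 0.41), Col1a1 (4.15 ± 0.34) and Col3a1 (3.24 ± 0.16), and 7 of 11 fibrillar chains were higher. On the lower side were Col4a1 (−1.26 ± 0.08), Col4a2 (−1.08 ± 0.12), Col4a5 and Col4a6, so 4 of 5 tested basement membrane chains were lower and only Col4a3 was higher. Col6a1 (0.78 ± 0.27, adjusted p = 0.0292) was less stable. Its call was lost with a pseudocount of 0.1 FPKM (adjusted p = 0.0665), on the TPM scale (0.0742), under quantile normalization (0.0906), and without CD140a+ control replicate 1 (0.102) or 2 (0.0573), CD146+ control replicate 1 (0.113) or CD146+ Trap replicate 2 (0.0515).

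Endothelium against CD146+ mesenchyme compares the lining of vessels with a population that holds the cells around them. Endothelium had 7 collagen genes higher and 26 lower, where 15.3% of all genes were higher and 20.4% lower. The higher genes were Col15a1 (2.75 ± 0.21), Col8a1 (0.90 ± 0.29), Col17a1 (0.81 ± 0.24), Col4a2, Col13a1 (0.58 ± 0.15), Col4a1 and Col18a1 (0.43 ± 0.14). All 7 beaded filament chains were lower, led by Col6a2 (−5.41 ± 0.18) and Col6a1 (−5.31 ± 0.27), and 9 of 11 fibrillar chains were lower. The Col17a1 call was lost with only these populations in the fit (adjusted p = 0.0743), and the Col18a1 call with 1 weight per population (0.0576), and without CD146+ control replicate 2 (adjusted p = 0.132) or endothelial control replicate 1 (adjusted p = 0.103).

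Between the epithelia, cTEC had 9 collagen genes higher and 13 lower than mTEC, where 12.9% of all genes were higher and 28.3% lower. The higher genes were led by Col18a1 (1.45 ± 0.14), Col8a2 (1.32 ± 0.23), Col4a5 (1.19 ± 0.32), Col4a2 (0.98 ± 0.12) and Col6a1 (0.92 ± 0.27). The lower genes were led by Col14a1 (−2.67 ± 0.41), Col6a5 (−2.46 ± 0.28), Col17a1 (−1.90 ± 0.24) and Col1a1 (−1.65 ± 0.34). All 3 basement membrane chains called were higher in cTEC. Quantile normalization shifted the median of all genes by 0.28 in this comparison, and under it 15 collagen genes were higher and 6 lower in cTEC, while the calls of Col6a3 and Col15a1 were lost. In cTEC libraries mural markers summed to between 100.5 and 148 FPKM, against 509 to 761 FPKM for mTEC. All 9 fibroblast markers summed to 31.4 to 41.6 FPKM per cTEC library, while mTEC libraries held 143 to 306 FPKM. Ly6a alone gave 106 to 266 FPKM of the latter. The other 8, a subset formed after the values were seen, summed to 16.3 to 21.2 FPKM per cTEC library. The mTEC libraries held 36.65 to 43.1 FPKM of this subset. Not every member followed: Dpt was at 3.42 to 9.05 FPKM in cTEC libraries but at most 0.51 FPKM for mTEC. Pdgfra was at most 0.57 FPKM in either. The part of the mural and fibroblast markers in these differences was not tested. The Col6a1 call was lost without cTEC control replicate 2 (adjusted p = 0.086) or mTEC control replicate 1 (0.0539), and the Col15a1 call also without mTEC control replicate 1 (0.0854).

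Chains of 1 molecule were compared as a ratio within each library, on the log2 scale, where both averaged at least 5 FPKM. The ratio of Col1a1 to Col1a2 was 0.53 in CD140a+ mesenchyme and −0.93 in CD146+ mesenchyme, a difference of 1.47 (two-sided exact permutation test, n = 6 against 6, adjusted p = 0.00758 over 7 tests; the smallest unadjusted p possible is 0.002165). The ratio of Col4a1 to Col4a2 was −0.33 in cTEC and 0.30 in mTEC, a difference of −0.63 (exact permutation, adjusted p = 0.00758). It was 0.03 in endothelium and 0.22 in CD146+ mesenchyme, a difference of −0.19 (exact permutation, adjusted p = 0.0303). The remaining 4 ratios did not pass. For Col4a1 to Col4a2 in CD140a+ against CD146+ mesenchyme the difference was −0.19 (exact permutation, adjusted p = 0.0606), and for Col5a1 to Col5a2, Col6a1 to Col6a2 and Col6a3 to Col6a1 it lay between −0.01 and 0.10.

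**Figure D3:**
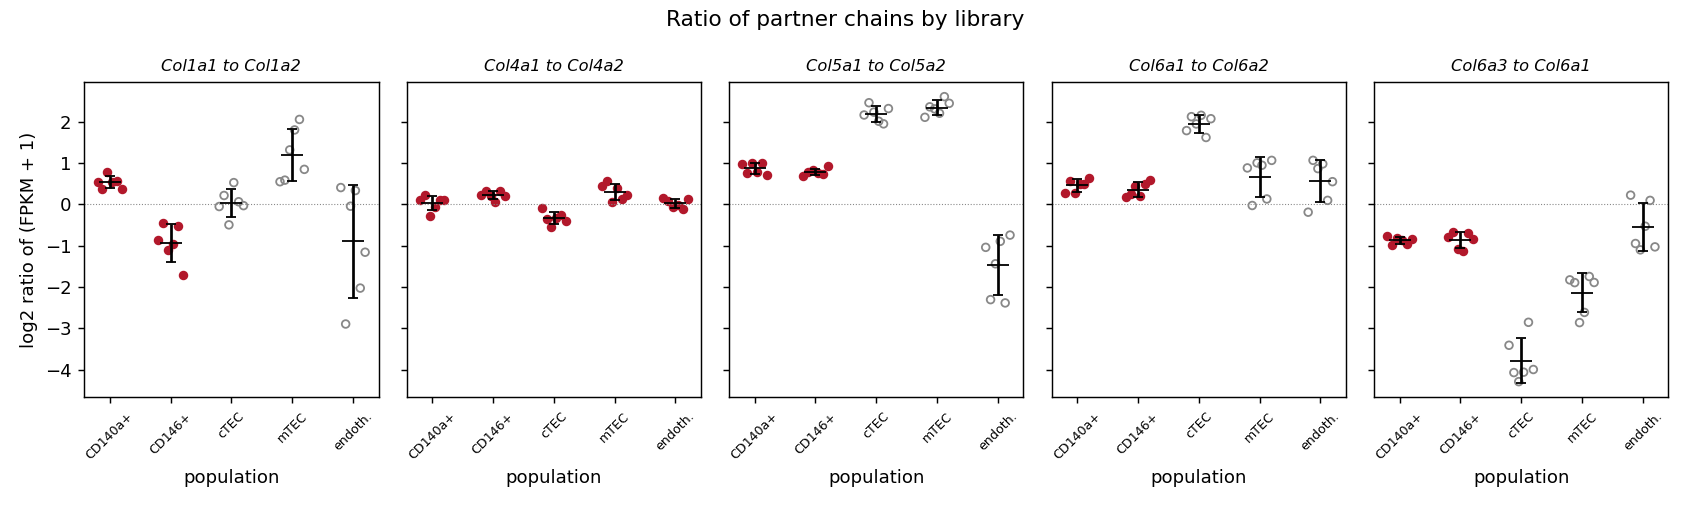
Ratio of partner chains, as log2 of (FPKM + 1), in each of the 6 libraries of a population, with mean and SD as black bars. Filled points mark populations where both chains averaged at least 5 FPKM, and open points those where 1 did not, as for Col5a1 to Col5a2 in cTEC and mTEC and Col6a3 to Col6a1 in cTEC.

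Genes that modify, fold, export, trim and cross-link collagen were followed as a list of 37, of which 36 were tested. In CD140a+ mesenchyme 29 were higher than in the other populations and 1 was lower, where 17.1% of all genes were higher and 33% lower. The largest differences were Loxl1, a cross-linking lysyl oxidase (4.23 ± 0.23), Pcolce, an enhancer of propeptide removal (3.84 ± 0.19), Fkbp14, a prolyl isomerase (3.36 ± 0.18), and Adamts2, a propeptidase (3.03 ± 0.15). CD146+ mesenchyme had 20 higher and 2 lower (18.2% and 25% of all genes), led by P3h2, a prolyl 3-hydroxylase that acts on type IV collagen (2.43 ± 0.13, 130 ± 32.4 FPKM). Endothelium had 8 higher and 17 lower (17.7% and 34.5% of all genes), and the lysyl hydroxylase Plod1 had its largest positive difference (2.31 ± 0.12, 21.8 ± 4.31 FPKM). In cTEC and mTEC 1 was higher and 25 were lower in each, where 21.2% and 24.5% of all genes were higher and lower in cTEC, and 38.4% and 17.5% in mTEC. The one higher gene of cTEC was P4ha3, a prolyl 4-hydroxylase subunit, by 2.57 ± 0.24, with 74.2 ± 10.2 FPKM in cTEC and 37.4 ± 7.13 FPKM in CD140a+ mesenchyme. In mTEC the collagen chaperone Serpinh1 was lower by −2.61 ± 0.12.

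Of 11 listed collagen receptors, 10 were tested. Ddr2, a receptor kinase for fibrillar collagen, was higher in CD140a+ mesenchyme by 4.36 ± 0.10 and in CD146+ mesenchyme by 3.83 ± 0.10. Mrc2, an endocytic collagen receptor, and the integrin chain Itga11 were higher in CD140a+ mesenchyme by 3.53 ± 0.16 and 2.64 ± 0.21. The integrin chains Itga1 and Itga10 were higher in CD146+ mesenchyme by 3.24 ± 0.13 and 2.64 ± 0.18. Endothelium was higher in Adgrg1, an adhesion receptor that binds type III collagen, by 4.64 ± 0.14, and in the integrin chain Itga2 by 3.08 ± 0.14. Ddr1, the epithelial counterpart of Ddr2, was higher in cTEC by 1.95 ± 0.17, with 13.4 ± 1.28 FPKM. In all, 3 receptors were higher and 6 lower in CD140a+ mesenchyme, 6 and 1 in CD146+ mesenchyme, 1 and 8 in cTEC, 2 and 7 in mTEC, and 4 and 4 in endothelium. The shares of all genes given above for the assembly list apply to these counts too: with 10 genes tested, 2 higher in mTEC stood against 38.4% of all genes, and 4 lower in endothelium against 34.5%.

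Trap was compared with control within each population to ask whether VEGF withdrawal changed collagen transcripts. Of 42 collagen genes, 0 were called in either direction in CD140a+ mesenchyme, CD146+ mesenchyme, cTEC and mTEC by limma, and 2, 5, 0 and 1 had an unadjusted p under 0.05. That is 4.76, 11.9, 0 and 2.38% of the members, where 3.71, 5, 2.28 and 7.49% of all genes had one. The background was equally sparse in these populations, with 0% of all genes higher and 0% lower in CD140a+ mesenchyme. It was 0.00609% higher and 0.0122% lower in CD146+ mesenchyme, 0% and 0.00609% in cTEC, and 0.0244% and 0.323% in mTEC. In endothelium 1 collagen gene was higher and 0 were lower, where 0.323% of all genes were higher and 1.42% lower. An unadjusted p under 0.05 was found for 9 members there, or 21.4%, and for 14.9% of all genes. The median collagen change was 0.02 in endothelium, −0.11 in CD140a+ mesenchyme, 0.10 in CD146+ mesenchyme, −0.04 in cTEC and 0.00 in mTEC, and the median of all genes lay between −0.04 and 0 in these populations. Only 2 controls per population were available, so the spread of a gene was estimated over all 10 groups. A missed threshold does not show that a gene was unchanged. A fit with 1 weight per population, where a low weight stands for a larger spread, gave endothelium 0.573 and mTEC 0.794. The highest weight was 1.66, in cTEC. The shared estimate may therefore be too small for endothelium, so standard errors and p-values there may be too small.

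**Figure D4:**
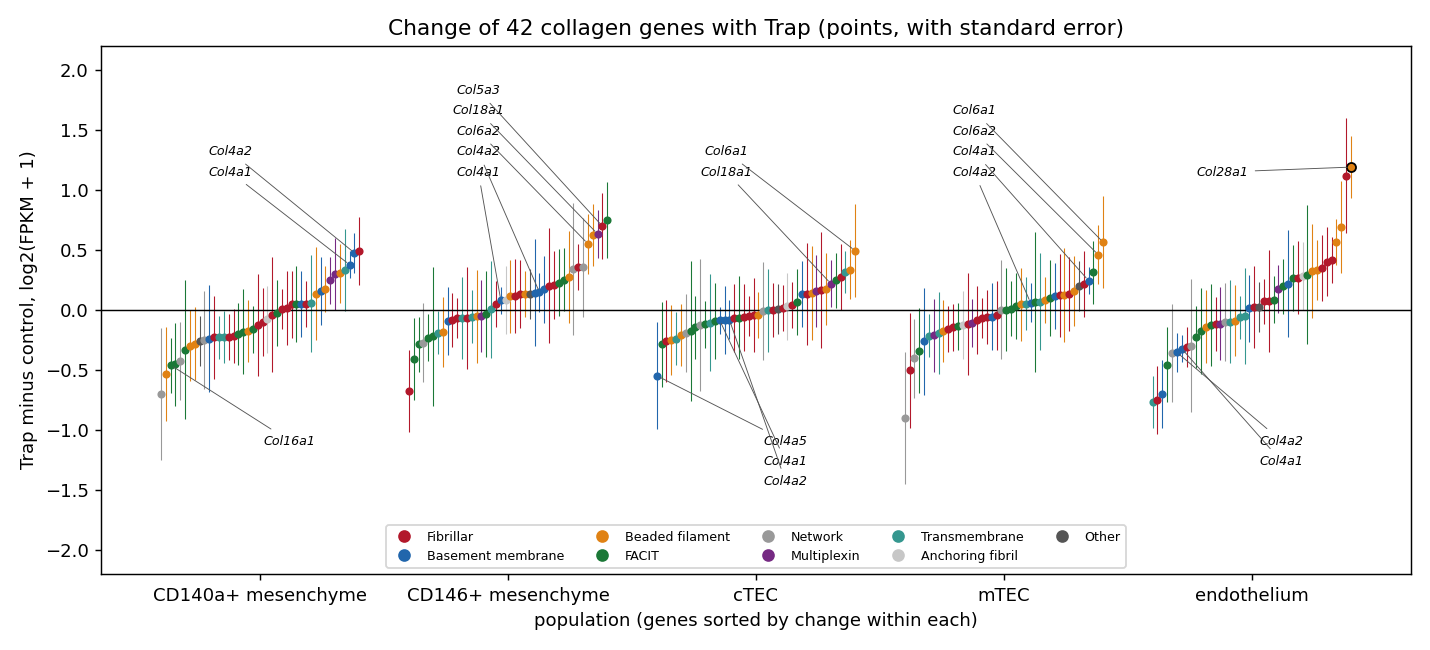
Trap minus control difference of the 42 tested collagen genes on the log2(FPKM + 1) scale in each population, sorted within it, with standard errors and colour by class. The single called point, Col28a1 in endothelium, is outlined in black, and the type IV chains Col4a1 and Col4a2 are labelled in each population.

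The called gene was Col28a1, a beaded filament collagen known from peripheral nerve. In endothelium it had 1.71, 1.43, 2.52 and 1.43 FPKM with Trap, against 0.20 and 0.20 FPKM in controls. All Trap libraries lay above both controls, at a level near 1 FPKM (1.19 ± 0.26, adjusted p = 0.016). Without Trap replicate 2 the difference was 1.25 ± 0.27 (adjusted p = 0.0187). The call was lost with a pseudocount of 0.1 FPKM (adjusted p = 0.0562), with 1 weight per population (0.241), with only endothelial libraries in the fit (0.376) and without control replicate 1 (0.109) or 2 (0.0554). Set against the average change in the remaining 4 populations, the endothelial change was larger by 1.17 ± 0.29 (adjusted p = 0.0775).

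Fibroblast markers in the endothelial libraries moved only in part in the same direction. Pdgfra, Lum, Dpt, Pi16 and Fbn1 were higher in every Trap library than in either control, while Dcn, Dpp4, Ly6a and Mfap5 overlapped. With Trap 5 to 6 of the 9 listed fibroblast markers reached 1 FPKM, against 2 to 4 in controls. Their summed level overlapped, at 404 to 530 FPKM with Trap and 499 and 298 FPKM in controls, but most of it was Ly6a. Without Ly6a, the other 8 summed to 97.2, 121, 91.9 and 103 FPKM with Trap, against 71.3 and 50.4 FPKM in controls. Without Ly6a and Fbn1, the next most abundant, the other 7 summed to 6.86 to 13.3 FPKM with Trap, against 4.54 and 1.14 FPKM in controls. Both of these sums, formed after the values were seen, were higher in all 4 Trap libraries than in either control. Summed mural markers were 187 to 224 FPKM with Trap and 236 and 234 FPKM in controls. Pdgfra, the gene of CD140a, had 0.65, 1.23, 1.14 and 0.56 FPKM with Trap and 0.00 and 0.12 FPKM in controls. Col28a1 itself averaged 0.193 ± 0.225 FPKM in CD140a+ mesenchyme and 1.94 ± 1.10 FPKM in CD146+ mesenchyme. The part of these markers in the Col28a1 difference was not tested.

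The type IV pair separated the Trap from the control libraries in endothelium and in CD140a+ mesenchyme. In endothelium Col4a1 had 384, 336, 382 and 370 FPKM with Trap, against 430 and 490 FPKM in controls. Col4a2 had 346, 315, 400 and 372 FPKM with Trap, against 462 and 449 FPKM in controls. All 4 Trap libraries lay below both controls for both genes, with differences of −0.32 ± 0.11 (adjusted p = 0.152) and −0.35 ± 0.16 (adjusted p = 0.311) that did not pass. In CD140a+ mesenchyme the order was the opposite. Col4a1 had 136, 150, 137 and 143 FPKM with Trap, against 105 and 112 FPKM in controls, and Col4a2 had 126, 128, 166 and 150 FPKM with Trap, against 97.9 and 105 FPKM in controls. The differences were 0.38 ± 0.11 (adjusted p = 0.937) and 0.48 ± 0.16 (adjusted p = 1), and they did not pass either. In mTEC, Col4a1 had 41.9, 44.7, 39.2 and 41.7 FPKM with Trap, against 35.3 and 35.0 FPKM in controls (0.25 ± 0.11, adjusted p = 0.627).

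The test of the difference between these changes also missed the threshold. The endothelial Trap change minus the average over the remaining 4 populations was −0.48 ± 0.13 for Col4a1 (adjusted p = 0.0961), −0.50 ± 0.18 for Col4a2 (adjusted p = 0.262) and 0.48 ± 0.21 for Col6a3 (adjusted p = 0.395). No collagen gene was called in it by limma, with 0.0487% of all genes higher and 0.231% lower, and 8 collagen genes (19%) had an unadjusted p under 0.05, as had 11% of all genes. Over the settings tried, the adjusted p of Col4a1 in this difference lay between 0.0764 and 0.604. In CD140a+ mesenchyme summed endothelial markers were 29.4 to 35.3 FPKM with Trap and 39.4 and 28.3 FPKM in controls, and mural markers 167 to 249 FPKM with Trap and 274 and 190 FPKM in controls, so both lists overlapped. In endothelium summed endothelial markers were 1527 to 1556 FPKM with Trap and 1698 and 1655 FPKM in controls, and their part in the type IV difference was not tested.

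**Figure D5:**
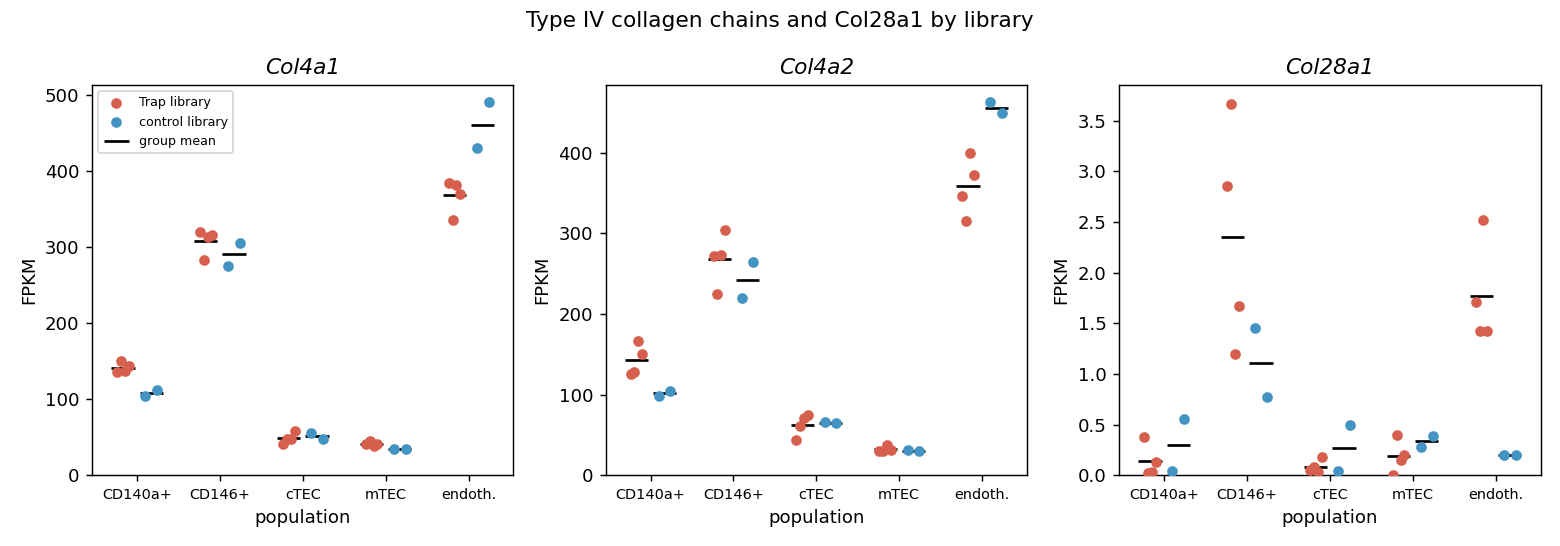
FPKM of Col4a1, Col4a2 and Col28a1 in each library, Trap left of control in each population, with the group mean as a line. For Col4a1 and Col4a2 the Trap points lie below the controls in endothelium and above them in CD140a+ mesenchyme, and Col28a1 is at most 3.67 FPKM, in CD146+ Trap replicate 2.

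The collagen share of the summed FPKM was described in the same way. In endothelium it was 0.473, 0.468, 0.517 and 0.495% with Trap, against 0.554 and 0.576% in controls, and basement membrane chains took 0.377 ± 0.0298% (SD, n = 4) with Trap and 0.459 ± 0.0243% (SD, n = 2) in controls. In CD140a+ mesenchyme basement membrane chains took 0.151 ± 0.0102% with Trap and 0.113 ± 0.00558% in controls, while the total was 3.05 ± 0.177% with Trap and 3.18 ± 0.351% in controls. In CD146+ mesenchyme the total was 0.932, 1.02, 0.933 and 1.01% with Trap, against 0.906 and 0.841% in controls.

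Among members with at least 5 FPKM in the higher group, those of smallest p in CD146+ mesenchyme were Col18a1, Col5a3 and Col6a2. Col18a1 had 12.7, 15.7, 13.7 and 14.8 FPKM with Trap, against 10.4 and 7.40 FPKM in controls (0.63 ± 0.20, adjusted p = 0.665). Col5a3 had 16.6, 21.6, 19.3 and 25.1 FPKM with Trap, against 11.2 and 13.3 FPKM in controls (0.70 ± 0.28, adjusted p = 0.911). Col6a2 had 156, 126, 141 and 202 FPKM with Trap, against 95.6 and 114 FPKM in controls (0.55 ± 0.25, adjusted p = 0.963). All Trap libraries lay above both controls for these 3 genes. In CD140a+ mesenchyme Col16a1 had 6.33, 9.63, 5.70 and 5.53 FPKM with Trap, against 9.18 and 9.82 FPKM in controls, which overlapped.

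In cTEC, among members at this level, the smallest p values belonged to Col6a1 (0.49 ± 0.39), Col4a5 (−0.55 ± 0.45) and Col18a1 (0.22 ± 0.20). Col4a5 had 4.45, 6.74, 6.38 and 5.62 FPKM with Trap, against 9.28 and 8.42 FPKM in controls, without overlap. Summed thymocyte markers were 88.4 to 139 FPKM with Trap and 53.0 to 83.7 FPKM in controls in these cTEC libraries, and their part in the result was not tested. In mTEC they belonged to Col4a1, Col6a2 (0.46 ± 0.25) and Col6a1 (0.57 ± 0.39). Col6a2 in mTEC had 3.73, 4.60, 6.60 and 5.38 FPKM with Trap, against 4.11 and 2.70 FPKM in controls, which overlapped.

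The mean Trap change over the 5 populations called 0 collagen genes by limma, where 0.134% of all genes were higher and 0.292% lower, and 7 (16.7%) had an unadjusted p under 0.05, as had 11.9% of all genes. Col6a2 had the smallest p, with a mean change of 0.40 ± 0.11 (adjusted p = 0.109), and its difference was above 0 in 5 of 5 populations, from 0.31 in CD140a+ mesenchyme to 0.55 in CD146+ mesenchyme. Quantile normalization called it (0.45, adjusted p = 0.0372). Col6a1, its tandem neighbour on chromosome 10, was also above 0 in 5 of 5 populations. The mean change of Col6a1 was 0.43 ± 0.17 (limma, adjusted p = 0.303). Col5a3 and Col4a6 were above 0 in 5 of 5 too, while Col8a2 and Col9a3 were below 0 in 5 of 5. Col6a2 was picked by the p of the mean change, so its agreement in direction is partly built in. How many of all genes kept 1 direction in 5 of 5 populations was not counted. Col18a1 had a mean change of 0.23 ± 0.09 (adjusted p = 0.272).

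Counted without a model, Trap and control libraries did not overlap for 10 collagen genes in endothelium, where 5.36% of all genes did so on the higher and 9.48% on the lower side. The 5 higher ones were Col28a1, Col6a3, Col1a1, Col16a1 and Col7a1, and the 5 lower ones were Col4a1, Col4a2, Col13a1, Col11a2 and Col19a1. Col6a3 had 2.19, 4.09, 2.26 and 2.19 FPKM with Trap, against 1.60 and 1.27 FPKM in controls (0.57 ± 0.19, adjusted p = 0.133). Col1a1 had 4.03, 1.18, 2.93 and 3.57 FPKM with Trap, against 0.76 and 0.69 FPKM in controls (1.12 ± 0.48, adjusted p = 0.264). Both genes were far higher in CD140a+ mesenchyme, at 1251 ± 200.5 FPKM for Col1a1 and 161 ± 10.9 FPKM for Col6a3. Summed over the list without Ly6a, the fibroblast markers separated the same endothelial libraries in the same direction. Their part in these values was not tested. In CD140a+ mesenchyme 4 were higher (Col4a1, Col4a2, Col15a1 and Col6a3) and 4 lower (Col14a1, Col20a1, Col25a1 and Col6a5), where 5.14% of all genes were higher and 6.79% lower. In CD146+ mesenchyme 4 were higher and 1 lower, where 5.8% of all genes were higher and 6.84% lower. In cTEC 2 were higher and 2 lower, where 5.66% and 7.87% of all genes were. In mTEC 1 was higher and 1 lower, where 5.06% and 8.4% of all genes were.

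Of the 36 assembly genes, 1 was called for Trap in a single population. It was lower in endothelium, where 1.42% of all genes were called lower. Plod2, a lysyl hydroxylase of collagen telopeptides, had 7.58, 9.94, 10.1 and 7.09 FPKM with Trap in endothelium, against 15.3 and 16.4 FPKM in controls. It fell by 0.81 on the log2 scale (SE 0.16, adjusted p = 0.00822), and its change in endothelium was below the mean change of the other 4 populations by −0.87 ± 0.18 (adjusted p = 0.0283). The endothelial call was lost with 1 weight per population (adjusted p = 0.163), with only endothelial libraries (0.452) and without control replicate 1 (0.0552). The call of the difference was lost with 1 weight per population (0.298), on the TPM scale (0.0568), under quantile normalization (0.0574) and without endothelial control replicate 1 (0.0937), control replicate 2 (0.0647) or Trap replicate 4 (0.0573). Of the 10 receptors, 0 were called by limma for Trap in any population. In CD140a+ mesenchyme, CD146+ mesenchyme, cTEC, mTEC and endothelium, 0, 1, 0, 1 and 2 of the 10 had an unadjusted p under 0.05. Of all genes, 3.71, 5, 2.28, 7.49 and 14.9% had one in these populations.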

How the data were processed

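Per the submitters' processing notes, the authors used bcl2fastq 2.17 and STAR with the GRCm38 (mm10) genome, and the deposited table holds FPKM values for 18847 protein-coding genes in 30 libraries, rounded to hundredths. Aligner settings and strand use were not stated there. Steps between low FPKM values lay closer to whole reads than with gene lengths shuffled in 30 of 30 libraries. They did not give whole reads, so depth is unknown, and no counting interval is given. Summed FPKM was 184608 to 241993 per library, and 10298 to 13661 genes reached 1 FPKM.

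Genes at 1 FPKM or more in at least 2 libraries were kept. limma 3.58.1 in R 4.3.3 was run on log2(FPKM + 1) with 1 mean for each of 10 groups, a trended prior and two-sided Benjamini-Hochberg adjustment over all 16425 genes, so fold changes of low genes are understated. Ratios of chains were compared with exact permutation tests in scipy 1.17.1. The fit was tested on simulated data. Gene coordinates are from GENCODE (GRCm38) and start windows from RefSeq GRCm38.p6.

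The members, classes, assembly list, receptor list and marker lists were chosen with earlier results of these data known. The genes described are up to 4 per class of highest group mean (at least 5 FPKM), every member called for Trap or, where none was, the 3 of smallest p among those with 5 FPKM or more in the higher group, and up to 4 called genes of largest difference from the assembly and receptor lists. Further members were named after their values were seen. Alternatives were a pseudocount of 0.1, no filter, a filter of 5 FPKM, a TPM scale, quantile normalization, 1 weight per population, only the populations compared, a replicate block and leaving out each library.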

Additional observations from a re-analysis of the deposited data

Results flagged for a closer look

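Of 57 groups of 4 Trap libraries examined for the described genes, 4 held a library far from the others, where chance gives about 1 in 20. Col1a2 in endothelium was 15.2 FPKM in Trap replicate 2 and 2.62 to 3.05 FPKM in the other 3. Col1a1 in CD140a+ mesenchyme was 1525 FPKM in Trap replicate 3 and 1123 to 1172 FPKM in the others. Col3a1 in CD146+ mesenchyme was 184 FPKM in Trap replicate 3 and 197 to 199.6 FPKM in the others. Col14a1 in mTEC was 13.9 FPKM in Trap replicate 1 and 7.26 to 8.23 FPKM in the others.

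The Trap changes of the type IV chains ran in opposite directions in every library of a pair of populations. For Col4a1 the change was 0.38 in CD140a+ mesenchyme and −0.32 in endothelium, a difference of 0.70. For Col4a1 in mTEC and endothelium it was 0.25 and −0.32, a difference of 0.57. For Col4a2 in CD140a+ mesenchyme and endothelium it was 0.48 and −0.35, a difference of 0.83. These pairwise differences were not tested.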

How the results depend on the processing

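Of 6262 alternatives for 168 single-gene population differences, 6228 kept their direction and side of the threshold, 34 lost the call and 0 reversed. Of 1056 for 28 Trap results, 1036 did so, 14 lost the call, 1 gained it and 5 reversed. For Trap in endothelium the collagen count of 1 was 0 with a pseudocount of 0.1, the 5 FPKM filter, 1 weight per population or only endothelial libraries, and 0 to 2 when 1 library was left out. The mean Trap change called 1 collagen gene under quantile normalization (0 otherwise), and the endothelial change against the others 0 to 1 when 1 library was left out. Over all genes, the Trap count in CD140a+ mesenchyme (0) was 4 without a filter, 1 with population weights, 2 with only that population and 0 to 9 without 1 library. In CD146+ mesenchyme (3) it was 13 without a filter, 1 with the 5 FPKM filter, 7 on the TPM scale, 6 with weights, 5 alone and 2 to 19 without 1 library. In cTEC (1) it was 2 with a pseudocount of 0.1, 0 with the 5 FPKM filter, 3 on the TPM scale, 8 with weights, 0 alone and 1 to 6 without 1 library. In mTEC (57) it was 9 with a pseudocount of 0.1, 205 without a filter, 6 with the 5 FPKM filter, 0 alone and 45 to 164 without 1 library. In endothelium (286) it was 189 under quantile normalization, 13 with weights, 8 alone, 97 without control replicate 1 and 476 without control replicate 2. The higher and lower split there was 53 and 233, and 76 and 189 on the TPM scale. The mean change (70, of which 22 higher and 48 lower) was 42 on the TPM scale (20 and 22), 34 with weights, 29 and 39 under quantile normalization, and 27 to 93 without 1 library. The endothelial change against the others (46, of which 8 higher and 38 lower) was 27 with the 5 FPKM filter, 29 under quantile normalization (8 and 21), 5 with weights and 31 to 232 without 1 library. Without 1 library, the Trap change was −0.0805 to 0.52 for Col18a1 in cTEC, −0.18 to 0.00885 for Col4a1 in cTEC, −0.17 to 0.0807 for Col4a2 in cTEC and −0.0134 to 0.11 for Col4a2 in mTEC. The ratio difference of Col4a1 to Col4a2 was −0.23 to −0.13 for CD140a+ against CD146+ mesenchyme and −0.23 to −0.17 for endothelium against CD146+ mesenchyme, and that of Col6a3 to Col6a1 was −0.0553 to 0.0366. Where 1 control remained, it was assumed to vary like the other groups. The cause of these changes was not tested.

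Whether equal replicate numbers pair the libraries was not settled. Between populations, 26 of 30 libraries correlated best with their own number. Same-numbered Trap pairs had a median correlation of 0.0225 (40 pairs), against −0.0076 for Trap pairs of different number (120 pairs). Correlations were taken on deviations from group means, which cancel within a group. The value for different numbers therefore largely follows from that for equal numbers and is no separate evidence. The deviations of the 2 controls of a population mirror each other, so these are not separate outcomes among the 30 libraries. No chance level was set for the count of 26. The correlations were small: 1 of 40 same-numbered Trap pairs and 0 of 20 control pairs were above 0.1. The main fit treated all libraries as independent. With the replicate number as a block, the mean Trap change called 27 genes instead of 70, and the Trap change of Col4a2 in mTEC was −0.0805 instead of 0.06. Depth is unknown, and 2 control libraries per population limit every Trap comparison.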
